A study of Mus musculus with 6 samples.

Results

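Respiratory complex I, the NADH:ubiquinone oxidoreductase of the inner mitochondrial membrane, was followed at the messenger RNA level in mouse lung cancer samples with and without forced expression of the microRNA miR-34a. The genes were all those of the array annotation whose current symbol starts with Ndufa, Ndufb, Ndufc, Ndufs, Ndufv or Ndufaf, taken from probe sets that carry 1 symbol, with the probe set of the highest mean log2 level used where a gene had several. This gave 39 of 12393 genes tested, read by 74 probe sets, and no filter on low values removed any of them. The deposited intensities of the 39 genes ran from 235.9 to 10057.5.

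The data are 3 arrays of 344SQ samples in which miR-34a was inducibly expressed and 3 arrays of 344SQ samples that carried a control vector. 344SQ is a metastatic mouse lung cancer line that the labels describe as high in Zeb1 and of KP type, and both groups share that background. The design text speaks of primary tumours from injected mice for both groups and the titles call the miR-34a samples, but not the vector samples, tumours, while the other labels of both groups speak of cultured cells, so the material is not settled and a difference in it cannot be told apart from the groups. The strain and age of the mice, the inducer, and whether replicates came from separate animals or cultures are not given, so a p-value here rests on array-to-array spread that may be technical. Of the epithelial genes, Krt8 had intensities of 21273 to 22834 in miR-34a samples and 19705 to 22490 in vector samples. Cdh1 had 13143 to 13878 and 12237 to 13563. Other genes varied more: Epcam had 304.8 on vector 1, against 977 and 1463 on vector 2 and vector 3 and 951 to 1142 in miR-34a samples. Krt19 had 19739 on vector 1, against 11940 and 12667 on vector 2 and vector 3 and 11682 to 12905 in miR-34a samples. The lung lineage genes Sftpc and Nkx2-1 reached at most 347.8 on any of the 6 arrays. Of the 11 genes listed for lung cancer epithelium, which include Zeb1 and Vim, 7 changed by more than 0 and 0 passed the limma test. At an unadjusted p under 0.05, 1 was higher and 1 lower, against 17% and 11.3% of all genes. Array medians ran from 466.7 to 484.2.

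Vector 1 stood apart from the other arrays. Its correlation across genes with vector 2 and vector 3 was 0.9686 and 0.9722, while vector 2 and vector 3 correlated at 0.993 with each other and the miR-34a arrays at 0.9918 to 0.9955 among themselves. The log2 difference between 3′ and 5′ probe sets of the Actb control, a sign of RNA integrity, was 0.54 to 0.59 in miR-34a samples and 0.34 to 0.60 in vector samples. The same difference for the Gapdh control was 0.10, 0.12 and 0.10 in miR-34a samples, against -0.04, 0.07 and -0.05 in vector samples, so it was higher in every miR-34a sample. Its part in the results below was not tested. Of the 39 complex I genes, 28 had their highest vector value on vector 1. The results are therefore also given without that array.

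Complex I takes electrons from NADH and passes them along a chain of iron-sulfur clusters to ubiquinone, and couples this to proton pumping. It is L-shaped: the arm that projects into the matrix holds an electron input module, which binds NADH and flavin mononucleotide, and a ubiquinone reduction module, and the membrane arm holds the proton pumps. Core subunits carry out catalysis and are shared with bacteria, some of them encoded by mitochondrial DNA, while accessory subunits, all encoded in the nucleus, surround them. Assembly factors of the NDUFAF group build the complex and are not part of the finished enzyme.

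miR-34a acts in the cell through its mature strand, whose bases 2 to 8, the seed, pair with target transcripts. It is shown because its expression defines the miR-34a samples, with the seed in capitals. The sequence is from RefSeq, GRCm38.p6, chr4:150068473-150068494, plus strand, and the labels do not name the arm.
mmu-miR-34a-5p: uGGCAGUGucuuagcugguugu

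The promoter windows of the 4 complex I genes that passed the test described next are shown for comparison with each other, from 250 bases before to 50 after the RefSeq start, 5′ to 3′ on the gene's strand, GRCm38.p6. They lie at chr6:24527641-24527940 (Ndufa5, minus strand), chr19:3912725-3913024 (Ndufs8, minus strand), chr19:4012706-4013005 (Ndufv1, minus strand) and chr17:33824322-33824621 (Ndufa7, plus strand). RefSeq gave 2 windows each for Ndufa5 and Ndufa7, and the one that starts farther upstream is printed. Capitals mark a form of the element bound by the transcription factor NRF1, GCGCA and GCGC with any 1 base between them.
Ndufa5: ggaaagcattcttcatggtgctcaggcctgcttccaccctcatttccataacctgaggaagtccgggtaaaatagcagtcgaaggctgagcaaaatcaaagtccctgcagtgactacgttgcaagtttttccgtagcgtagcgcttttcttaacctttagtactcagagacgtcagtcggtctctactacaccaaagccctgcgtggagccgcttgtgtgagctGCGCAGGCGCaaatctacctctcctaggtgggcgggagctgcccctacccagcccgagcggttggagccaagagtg
Ndufs8: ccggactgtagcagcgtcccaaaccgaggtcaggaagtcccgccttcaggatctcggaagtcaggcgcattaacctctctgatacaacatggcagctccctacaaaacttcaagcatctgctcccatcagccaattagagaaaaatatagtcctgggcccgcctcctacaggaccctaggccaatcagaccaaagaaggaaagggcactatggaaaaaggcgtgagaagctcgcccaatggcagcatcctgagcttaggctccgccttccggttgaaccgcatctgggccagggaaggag
Ndufv1: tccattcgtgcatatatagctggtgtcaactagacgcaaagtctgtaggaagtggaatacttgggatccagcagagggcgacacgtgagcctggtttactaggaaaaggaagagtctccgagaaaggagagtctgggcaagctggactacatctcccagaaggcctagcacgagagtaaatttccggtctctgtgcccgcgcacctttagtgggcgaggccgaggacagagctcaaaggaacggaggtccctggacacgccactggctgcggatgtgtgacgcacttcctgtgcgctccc
Ndufa7: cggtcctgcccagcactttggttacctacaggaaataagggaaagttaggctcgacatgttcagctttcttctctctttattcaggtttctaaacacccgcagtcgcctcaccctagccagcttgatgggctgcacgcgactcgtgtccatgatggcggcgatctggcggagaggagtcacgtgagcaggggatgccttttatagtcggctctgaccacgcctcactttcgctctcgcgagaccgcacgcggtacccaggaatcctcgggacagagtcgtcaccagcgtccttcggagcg

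Motifs were searched on both strands in the windows of the 36 complex I genes that had one. The NRF1-type element was present in 6 of the 36 genes (16.7%), against 9.37% of the 9784 tested genes with a window. These were Ndufa5, Ndufa6, Ndufa8, Ndufaf4, Ndufaf5 and Ndufs5, and their median log2 change was -0.11, against 0.14 in the genes without it. AAGATGGC, a form of the YY1 element, was present in 6 of 36 (16.7%, against 4.40%), with none of the genes that passed among them. The median change of these 6 genes was 0.21, against 0.06 in the genes without the YY1 element. CCGGAAGT, an ETS-type element, was present in 1 of 36, Ndufs3 (2.78%, against 7.27%). Ndufs3 changed by 0.30, against a median of 0.07 in the genes without the ETS-type element. The relation of these motifs to the changes was not tested. Overlap between matches of different motifs was not examined, and a match describes these letters in this window only.

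Setting miR-34a samples against vector samples shows how complex I transcripts differ between these groups of arrays. Complex I genes moved in both directions: Ndufs8, Ndufv1 and Ndufa7 rose, by 1.52-fold, 1.38-fold and 1.33-fold, and Ndufa5 fell by 1.84-fold. The genes that rose encode subunits of the matrix arm, and so does the gene that fell. No gene of the membrane arm and no NDUFAF assembly factor passed, though this contrast rests on the cutoff given next. Each gene was tested on log2(intensity + 16) with limma across all 12393 genes, and passed where the Benjamini-Hochberg adjusted p was under 0.05. The membrane arm genes Ndufb7, Ndufc1 and Ndufb9 were just over this cutoff (limma adjusted p = 0.0505, 0.0519 and 0.0565). So was Ndufs3 of the matrix arm (limma adjusted p = 0.0517). All of these passed with 64 added in place of 16, and none passed with arrays centred on their medians.

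Of the 39 genes, 3 passed as higher (7.69%, against 6.5% of all genes) and 1 as lower (2.56%, against 5.25% of all genes), so the shares that passed were near those of all genes. Of the 39, 25 changed by more than 0 (64.1%, against 54.3% of all genes). None of the 39 changed by 1 or more on the log2 scale, against 293 of all 12393 genes. Of the 39, 27 changed by less than 0.25, against 8388 of all 12393 genes, so small changes were common on these arrays. The median log2 change was 0.092, against 0.024 over all genes, and became -0.004 with arrays centred on their medians, a scaling that moved all genes by -0.095. At an unadjusted p under 0.05 there were 11 higher (17% of all genes) and 2 lower (11.3% of all genes). The groups did not overlap in 19 of the 39 genes (34.9% of all genes): miR-34a samples were all above vector samples in 12 (30.8%, against 20.8% of all genes) and all below in 7 (17.9%, against 14% of all genes). Without vector 1, 8 genes passed as higher (20.5%, against 10.1% of all genes) and 1 as lower (2.56%, against 7.15%). The counts fell to 0 higher and 1 lower without miR-34a 1 and to 0 and 0 without miR-34a 3.

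**Figure D1:**
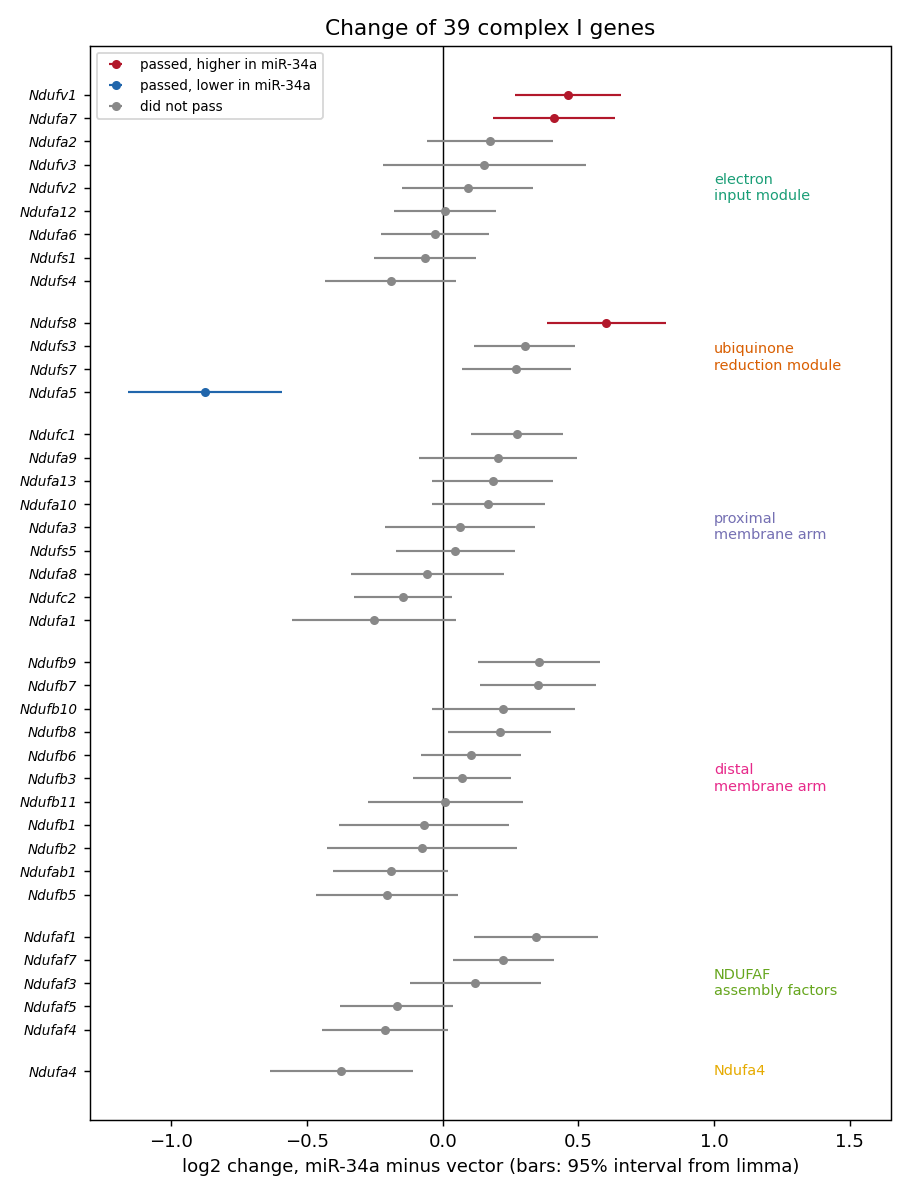
Log2 change, miR-34a minus vector, of each of the 39 complex I genes (points) with its 95% interval from the limma fit (bars), grouped by role; red and blue mark the genes that passed. Changes run from -0.88 for Ndufa5 to 0.60 for Ndufs8, and the interval includes 0 in 26 genes.

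In the electron input module 9 of 10 listed genes were measured; 6 changed by more than 0, 2 passed as higher and 0 as lower. Ndufv1, the core subunit that binds NADH and flavin and carries an iron-sulfur cluster, had intensities of 5428, 5107 and 5468 in miR-34a samples, against 3976, 4048 and 3602 in vector samples. All miR-34a values lay above all vector values. Its log2 change was 0.46 ± 0.083 (SE; limma adjusted p = 0.0184).

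Ndufa7, an accessory subunit of the matrix arm, had 7415, 7707 and 7844 in miR-34a samples, against 5666, 5251 and 6422 in vector samples. The groups did not overlap, and vector 3 was the nearest to the miR-34a samples. The log2 change was 0.41 ± 0.0957 (SE; limma adjusted p = 0.0372). With arrays centred on their medians it was 0.31 and did not pass (limma adjusted p = 0.0803; the range over 15 alternatives was 0.0197 to 0.142).

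The other core genes of this module did not pass: Ndufv2, an iron-sulfur subunit, averaged 4626 ± 380 in miR-34a and 4342 ± 386 in vector samples, and Ndufs1, the iron-sulfur subunit that receives electrons from Ndufv1, 1647 ± 99.6 and 1721 ± 18.1 (SD, n = 3 each). Their log2 changes were 0.092, with a 95% interval of -0.15 to 0.33, and -0.065, with an interval of -0.25 to 0.12. In both genes the groups overlapped. Ndufs4, an accessory subunit whose loss in mice gives a Leigh-like encephalopathy, had 2741, 2601 and 2502 in miR-34a samples, against 2840, 2759 and 3398 in vector samples. Its groups did not overlap, at a change of -0.19 ± 0.10 (SE; limma adjusted p = 0.277). Changes of the remaining genes, Ndufa2, Ndufa6, Ndufa12 and Ndufv3, ran from -0.03 to 0.17. Of these, Ndufv3 had 7306, 6864 and 7696 in miR-34a samples, against 8448, 5899 and 5624 in vector samples. Without vector 1 its change was 0.34 and passed (limma adjusted p = 0.0404; the range over 15 alternatives was 0.0404 to 0.907). Over all arrays it was 0.15 (limma adjusted p = 0.584).

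The ubiquinone reduction module held both the strongest rise and the strongest fall. All 4 of its measured genes had groups that did not overlap, 3 with miR-34a above (20.8% of all genes) and 1 below (14% of all genes). Ndufs8, the core subunit that carries a pair of iron-sulfur clusters, had 7023, 6622 and 7012 in miR-34a samples, against 5030, 4217 and 4379 in vector samples. The highest vector value, that of vector 1, was still well under the lowest miR-34a value. The log2 change was 0.60 ± 0.0928 (SE; limma adjusted p = 0.0119), and 0.68 without vector 1.

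Ndufa5, an accessory subunit that is bound to the core of this module, had 1476, 1267 and 1355 in miR-34a samples, against 2915, 2459 and 2220 in vector samples. Every miR-34a value was lower than every vector value. The log2 change was -0.88 ± 0.12 (SE; limma adjusted p = 0.00856), and -0.77 without vector 1, which was the highest array. Of the 6 fits that left out 1 array, it passed in 5, and without miR-34a 3 its limma adjusted p was 0.0524. Ndufs8 passed in 4 of these fits, Ndufv1 in 3 and Ndufa7 in 2.

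Ndufs3 and Ndufs7 are core subunits of the same module, and Ndufs7 carries the last cluster before ubiquinone. Ndufs3 had 5151, 4917 and 5246 in miR-34a samples, against 4315, 3913 and 4181 in vector samples, a log2 change of 0.30 ± 0.079 (SE; limma adjusted p = 0.0517). Ndufs7 had 4068, 4427 and 4109 in miR-34a samples, against 3671, 3240 and 3529 in vector samples, a log2 change of 0.27 ± 0.0851 (SE; limma adjusted p = 0.0861). Neither passed, although the groups did not overlap in either. Without vector 1 the change of Ndufs3 was 0.33 and passed (limma adjusted p = 0.0357; the range over 15 alternatives was 0.0123 to 0.179).

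The unequal movement within this module does not depend on a scaling factor per array, since it can be read within each array. The log2 intensity of Ndufs8 minus that of Ndufa5 was 2.24, 2.37 and 2.36 in miR-34a samples, against 0.78, 0.77 and 0.97 in vector samples. The pair was chosen for its changes, so the difference of 1.48 between the means is a description. Over the 6 measured core genes together, 5 changed by more than 0 and 2 passed, with a median change of 0.29. Of these 6, 4 had miR-34a samples wholly above vector samples (20.8% of all genes). Over the 27 accessory genes, 17 changed by more than 0 and 1 passed in each direction, with a median change of 0.06. Of these 27, 6 had miR-34a samples wholly above (20.8% of all genes) and 4 wholly below (14% of all genes). With arrays centred on their medians these medians were 0.19 and -0.03.

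**Figure D2:**
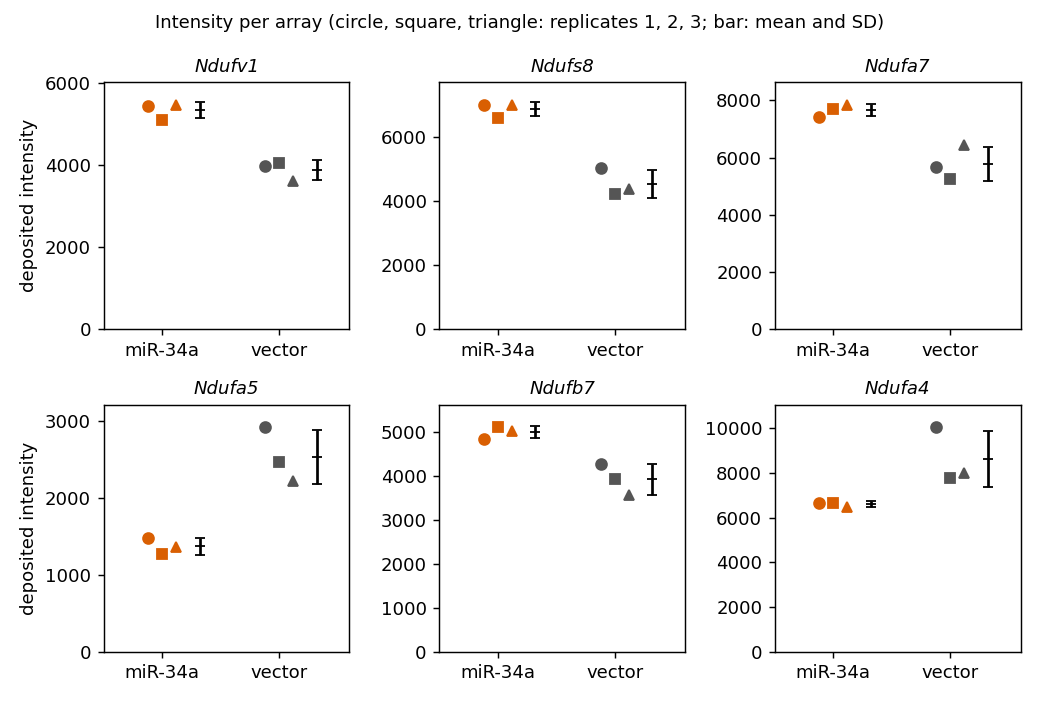
Deposited intensity of 6 complex I genes on each array (circle, square and triangle: replicates 1, 2 and 3), with the mean and SD of each group as a bar; axes start at 0. Ndufv1, Ndufs8 and Ndufa7 lie higher and Ndufa5 lower in the miR-34a samples, and the groups do not overlap in any of the 6, including Ndufb7 and Ndufa4, which did not pass.

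In the proximal membrane arm 9 of 10 listed genes were measured and 0 passed by limma, with 1 at an unadjusted p under 0.05. That gene was Ndufc1, a small membrane subunit, with 5295, 5261 and 5508 in miR-34a samples, against 4372, 4424 and 4475 in vector samples. Both groups were tight and did not overlap, and the log2 change was 0.27 ± 0.0716 (SE; limma adjusted p = 0.0519). Ndufa1, an X-linked subunit needed for assembly, had 6347, 5103 and 6731 in miR-34a samples, against 7991, 6851 and 6749 in vector samples. The highest miR-34a value lay just under the lowest vector value, and the change was -0.25 ± 0.13 (SE; limma adjusted p = 0.25).

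Ndufa13, also known as GRIM-19 and described as a cell death regulator, averaged 7102 ± 416 in miR-34a and 6258 ± 530 in vector samples (SD, n = 3 each), with overlapping groups and a change of 0.18. Ndufc2, a small membrane subunit like Ndufc1, averaged 5671 ± 280 and 6274 ± 111, with miR-34a samples wholly below and a change of -0.15. Ndufa9, a nucleotide-binding subunit near the ubiquinone site, had 5700, 5385 and 5765 in miR-34a samples, against 5864, 4516 and 4371 in vector samples. Vector 1 alone made its groups overlap: without that array the change was 0.34 and passed (limma adjusted p = 0.0326; the range over 15 alternatives was 0.0231 to 0.632), while over all arrays it was 0.20 (limma adjusted p = 0.335). The changes of Ndufa3, Ndufa8, Ndufa10 and Ndufs5 ran from -0.06 to 0.17.

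In the distal membrane arm 11 of 12 listed genes were measured. By limma 0 passed, with 3 at an unadjusted p under 0.05, and 4 had miR-34a samples wholly above vector samples (20.8% of all genes). Ndufb7 and Ndufb9, accessory subunits at the far end of the arm, were the leading ones. Ndufb7 had 4841, 5107 and 5027 in miR-34a samples, against 4266, 3926 and 3566 in vector samples, a change of 0.35 ± 0.0908 (SE; limma adjusted p = 0.0505). Ndufb9 had 6778, 7097 and 7061 in miR-34a samples, against 5990, 4894 and 5536 in vector samples, a change of 0.35 ± 0.0954 (SE; limma adjusted p = 0.0565). Both passed without vector 1, at changes of 0.41 and 0.42 (limma adjusted p = 0.0183 and 0.0194; the ranges over 15 alternatives were 0.00524 to 0.164 and 0.0111 to 0.179).

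Ndufb8, another accessory subunit of this arm, changed by 0.21, with an interval of 0.02 to 0.40 and no overlap of the groups. Ndufab1 is the mitochondrial acyl carrier protein, which binds Ndufb9 and Ndufa6 and also serves fatty acid synthesis. It averaged 4701 ± 290 in miR-34a and 5374 ± 357 in vector samples (SD, n = 3 each), a change of -0.19 with overlapping groups. The changes of the other genes of this arm, Ndufb1, Ndufb2, Ndufb3, Ndufb5, Ndufb6, Ndufb10 and Ndufb11, ran from -0.21 to 0.22.

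Of the NDUFAF assembly factors 5 of 8 listed were measured and 0 passed by limma, with 2 at an unadjusted p under 0.05. Ndufaf1, which acts in assembly of the membrane arm, had 785, 825.4 and 829.6 in miR-34a samples, against 575.9, 631.7 and 711.7 in vector samples, a change of 0.34 ± 0.0968 (SE; limma adjusted p = 0.0641). Ndufaf7, a mitochondrial methyltransferase, had 598.5, 607.4 and 625 in miR-34a samples, against 487.1, 531.3 and 544.9 in vector samples, a change of 0.22 ± 0.0793 (SE; limma adjusted p = 0.117). In both, all miR-34a samples lay above all vector samples. Ndufaf4 and Ndufaf5 lay wholly below instead, at changes of -0.21 and -0.17, and Ndufaf3, which works with Ndufaf4 on the matrix arm, changed by 0.12 with overlapping groups.

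Ndufa4 carries an Nduf symbol, but its product is now assigned to cytochrome c oxidase. It had 6681, 6676 and 6462 in miR-34a samples, against 10058, 7775 and 8022 in vector samples. The groups did not overlap, and vector 1 was far above the rest. The change was -0.37 ± 0.112 (SE; limma adjusted p = 0.0769), -0.26 without vector 1, and -0.47 with arrays centred on their medians, where it passed (limma adjusted p = 0.0475; the range over 15 alternatives was 0.024 to 0.222).

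**Figure D3:**
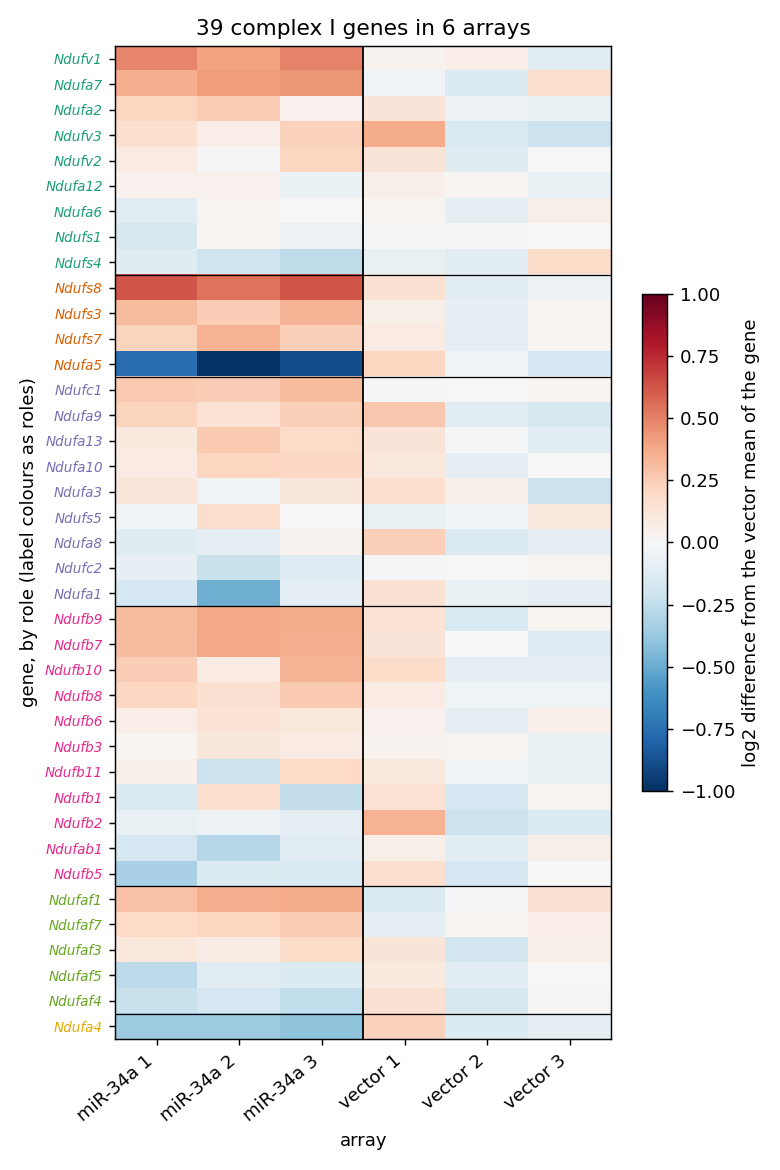
Log2 difference of each array from the gene's vector mean for the 39 complex I genes (rows, by role) on the 6 arrays (columns, miR-34a left of the line), from blue at -1 to red at 1. Ndufv1, Ndufa7, Ndufs8 and Ndufb9 are red and Ndufa5 and Ndufa4 blue on all 3 miR-34a arrays, and vector 1 is the highest vector array in 28 rows.

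Taking the median over the 39 genes of the log2 difference from the vector mean, the miR-34a arrays stood at 0.085, 0.086 and 0.11 and vector 1, vector 2 and vector 3 at 0.10, -0.09 and -0.006. Vector 1 was thus as high as the miR-34a arrays over the whole family, so the family's median did not separate the groups. The part of any 1 array in the results was examined only by leaving it out.

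Of the 39 genes, 20 had more than 1 probe set, and in 5 of these another probe set changed in the opposite direction. None of the 4 genes that passed was among the 5. The other 5 probe sets of Ndufs8 changed by 0.48 to 0.62, the other 4 of Ndufa7 by 0.46 to 0.58, the others of Ndufv1 by 0.39 and 0.56, and the other of Ndufa5 by -0.67. Ndufa12 spread widest, at 0.0082 for the probe set used and -0.12 to 0.48 for the others. The 0.48 was from a dim probe set with intensities of 42 to 82, against 4180 to 5651 for the rest of Ndufa12. Without detection calls, values of 42 to 82 cannot be told from background. For Ndufb9 the others changed by 0.48 and -0.05. The -0.05 was from a probe set at 188 to 214, against 2700 to 7097 for the rest of Ndufb9.

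**Figure D4:**
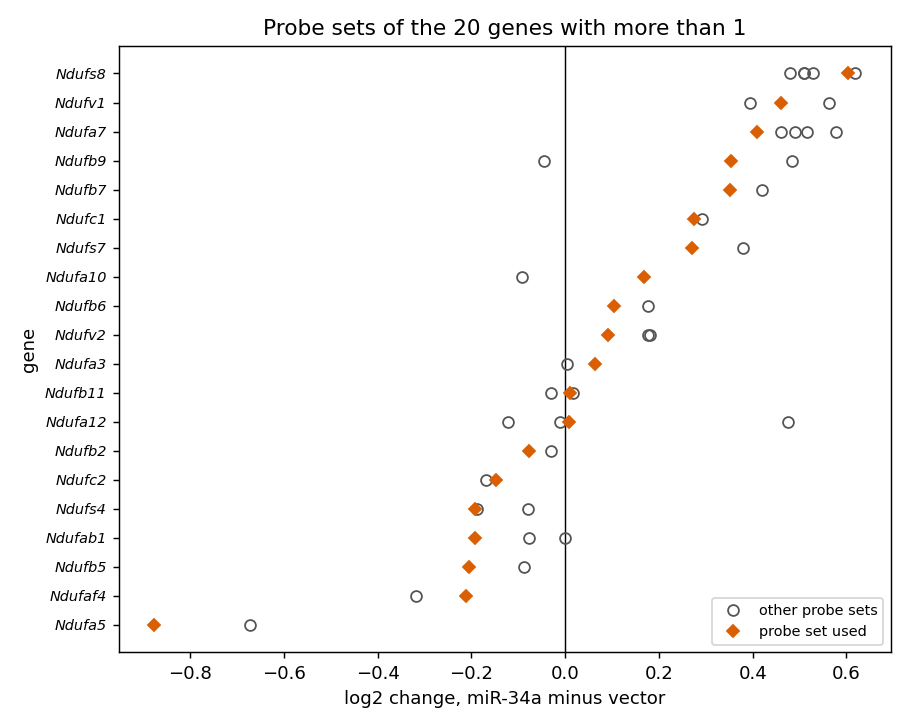
Log2 change, miR-34a minus vector, of each probe set of the 20 complex I genes with more than 1; diamonds mark the probe set used and open circles the others. All probe sets of Ndufs8, Ndufv1 and Ndufa7 lie above 0 and both of Ndufa5 below.

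A further 8 probe sets named a family member together with another gene or pseudogene and were left out of the 39. The one shared by Ndufa11 and Ndufa11b had 3535, 3423 and 3532 in miR-34a samples, against 2900, 2325 and 2542 in vector samples, a change of 0.44 without overlap. The probe set shared by Ndufs6 and Ndufs6b changed by 0.15, with miR-34a samples wholly above. Those shared by Ndufb4, Ndufb4b and Ndufb4c changed by 0.25 and 0.17, also wholly above. The one shared by Ndufb2 and Adck2 changed by -0.22, with miR-34a samples wholly below. Those that Ndufs5, Ndufa13 and Ndufab1 share with another gene or pseudogene changed by 0.15, 0.008 and -0.02, with overlapping groups. Of all genes, 20.8% lay wholly above and 14% wholly below. The values of shared probe sets cannot be given to 1 gene, and no test was made on them.

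The genes that rose lay in gene-rich surroundings. Counted in the GRCm38.p6 RefSeq table, 40, 41 and 44 other protein-coding genes start within 500 kb of Ndufs8, Ndufv1 and Ndufa7, against 10 for Ndufa5 and a median of 13 over the family. In the 13 complex I genes with the fewest neighbours, 2 to 10, the median change was -0.08 and 4 changed by more than 0. In the 13 with the most, 24 to 58, the median was 0.22 and 11 changed by more than 0. Across the 39 genes Spearman's rho between neighbour count and change was 0.575. It was 0.261 across 37 genes of complexes II to V and 0.174 across all 12155 tested genes found in the table. Without vector 1 these values were 0.567, 0.345 and 0.227, so the family stood less far above complexes II to V. Neighbour count was 1 of 4 measures set against the change, and rho was -0.24 with gene span, -0.09 with promoter GC content (36 genes) and 0.09 with mean level. These points share the same 6 arrays, and neighbouring genes are not independent, so the values are descriptions. With windows of 250 and 1000 kb rho over the family was 0.565 and 0.574.

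Ndufs8 and Ndufv1 are themselves neighbours on chromosome 19, with 8 protein-coding genes between them in that table. Of these, 5 were tested, and Aldh3b1, an aldehyde dehydrogenase gene, and Acy3, an aminoacylase gene, also passed as higher, at 0.71 ± 0.123 and 0.68 ± 0.109 (SE; limma adjusted p = 0.0166 and 0.0133). Nudt8, Unc93b1 and Doc2g, at 0.42, 0.20 and -0.02, did not pass.

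**Figure D5:**
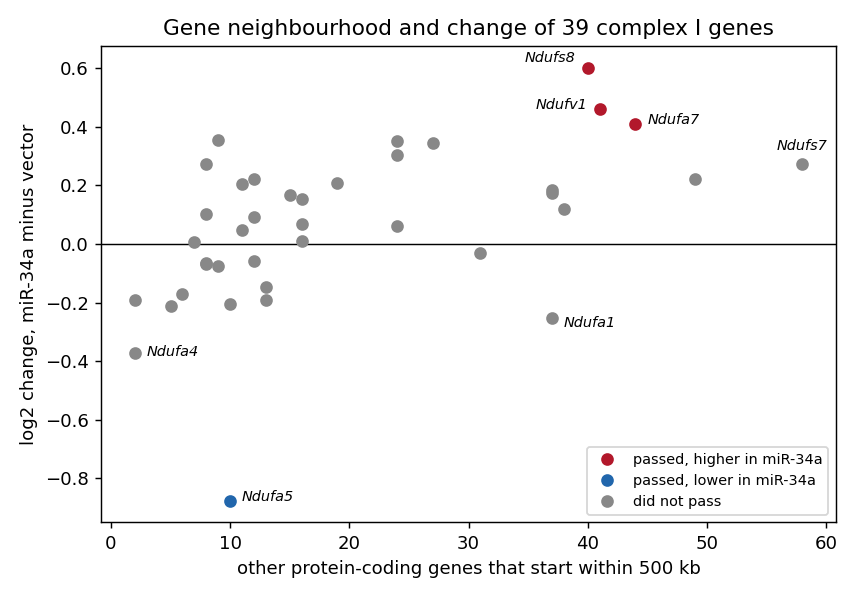
Log2 change, miR-34a minus vector, of the 39 complex I genes (y axis) against the number of other protein-coding genes that start within 500 kb (x axis); red and blue mark the genes that passed. The 3 genes that rose have 40 to 44 neighbours and Ndufa5 has 10, and Ndufa1 with 37 neighbours lies below 0.

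Genes that work with complex I are set against the 11.7% of all genes that passed in either direction, 6.5% as higher and 5.25% as lower. Of all genes, 54.3% changed by more than 0, and 17% were higher and 11.3% lower at an unadjusted p under 0.05. Of 12 measured assembly factors outside the NDUFAF group, 3 changed by more than 0 and 9 by less, and the single call was a fall, with 1 higher and 4 lower at an unadjusted p under 0.05. It was that of Aifm1, which encodes the apoptosis-inducing factor, a mitochondrial flavoprotein needed for normal complex I levels. It had 1177, 961 and 1171 in miR-34a samples, against 1949, 1827 and 1853 in vector samples, with wide separation of the groups. Its log2 change was -0.76 ± 0.102 (SE; limma adjusted p = 0.00821), and it passed in all 6 fits that left out 1 array.

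Of 7 measured genes of iron-sulfur cluster supply, 6 changed by more than 0 and 0 passed by limma, with 3 at an unadjusted p under 0.05. Of 12 measured regulators of mitochondrial biogenesis, 0 passed, with 1 higher and 2 lower at an unadjusted p under 0.05. Nrf1, which encodes the factor whose element is marked above, had 664.4, 635.3 and 680 in miR-34a samples, against 628.1, 643.2 and 645.1 in vector samples, and its groups overlapped. Ppargc1a, the coactivator gene PGC-1alpha, changed by -0.29 ± 0.097 (SE; limma adjusted p = 0.0984). Of 37 measured genes of complexes II to V, 3 passed as higher and 2 as lower. Uqcrq of complex III, Atp5e and Atp5k of ATP synthase rose by 0.50, 0.47 and 0.32, and Cox6c of cytochrome c oxidase and Atp5j of ATP synthase fell by 0.39 and 0.36 on the log2 scale. With the mean of all its probe sets Uqcrq changed by 0.19 and did not pass (limma adjusted p = 0.205). Without miR-34a 1 or miR-34a 3, 0 of the 37 passed by limma in either direction. Without miR-34a 2 there were 0 higher and 1 lower, without vector 2 there were 1 and 1, and without vector 3 there were 1 and 0. Their median change was 0.08, against 0.09 for the complex I genes.

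In bulk RNA fewer cells of a type and less RNA per cell cannot be told apart, so the levels of other cells' markers are given beside these results. For comparison, 54.3% of all genes changed by more than 0, and 6.5% passed as higher and 5.25% as lower. At an unadjusted p under 0.05, 17% of all genes were higher and 11.3% lower. All 15 skeletal muscle markers changed by more than 0 and 0 passed by limma, with 3 at an unadjusted p under 0.05. Their summed intensity was 3247 to 11761 in miR-34a samples, against 3072 to 4168 in vector samples. miR-34a 2 was the low miR-34a array for Myh1, a fast myosin gene, with 61.95, while miR-34a 1 and miR-34a 3 had 1507 and 2580. Of 12 fibroblast markers 11 changed by more than 0 and 3 passed as higher, with sums of 51371 to 71703 in miR-34a samples, against 22193 to 57100 in vector samples, lowest on vector 1. Of 12 macrophage markers 9 changed by more than 0, and 2 passed as higher and 1 as lower, with sums of 28539 to 32722, against 19658 to 28167. Of 8 adipocyte markers 3 changed by more than 0 and 0 passed by limma (1 higher at an unadjusted p under 0.05), with sums of 1689 to 1755 in miR-34a samples, against 1795 to 2112. Of 10 endothelial markers 7 changed by more than 0 and 0 passed by limma (1 higher and 1 lower at that unadjusted p), with sums of 6928 to 7197, against 4739 to 9050. Of 9 T and NK cell markers 7 changed by more than 0 and 0 passed by limma (2 higher at that unadjusted p), with sums of 4081 to 4376, against 3819 to 3960. The lowest marker intensity was 21.51, for Myh4 in miR-34a 2, and without detection calls such dim values cannot be told from background. The part of these cells in the complex I values was not tested.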

How the data were processed

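Per the labels, biotin-labelled cRNA from 6 samples was read on Affymetrix mouse arrays. The authors deposited intensities on a linear scale in a value table of 22690 probe sets. How they were summarised and normalized is not stated in the labels or files used. Without detection calls, dim probe sets cannot be told from background, and precision is limited by having 3 arrays per group.

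Groups came from the sample titles. Gene names came from the platform annotation and, through Entrez identifiers, the GRCm38.p6 RefSeq table: 20393 probe sets had 1 symbol, 691 several, 1606 none, and 64 were controls. Older symbols in lists were matched through that table's synonyms. Each of 12393 genes was represented by its probe set with the highest mean. Values were taken as log2(intensity + 16), which understates changes of low genes, and tested with limma 3.58.1 in R 4.3.3 (lmFit, eBayes, two-sided, no block), with Benjamini-Hochberg adjustment over all genes at 0.05. Changes are miR-34a minus vector. The test was checked on simulated data. Role lists, related lists, markers and alternatives were chosen with earlier results of these data known; the neighbour count and motifs were added afterwards. The text names every complex I gene that passed, the 3 with the smallest p per role, and up to 4 passing genes per related list; others named were chosen after their values were seen. Promoter and miRNA sequences are RefSeq's. Plots used matplotlib 3.10.9 (Python 3.11.15).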

Additional observations from a re-analysis of the deposited data

How the results depend on the processing

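Of the 39 complex I genes, 3 passed as higher and 1 as lower, among 1456 over all genes. Those passing as higher numbered 7 with the lowest 25% of genes by level left out, 7 with a pseudocount of 64, 7 with a robust variance trend, 6 with the mean of all probe sets, 13 with array weights, 9 at an adjusted p under 0.1 and 1 with the replicate number as a block. In each setting with 7, these included Ndufb7, Ndufb9 and Ndufc1 of the membrane arm and Ndufs3 of the matrix arm. Those passing as lower numbered 2 with median centring, 2 with the robust trend, 3 with array weights and 2 at an adjusted p under 0.1. Over all genes 3238 passed with array weights, 522 with the block and 2422 at an adjusted p under 0.1. Over the 6 fits that drop a single array, 0 (without miR-34a 1 or miR-34a 3) to 8 (without vector 1) complex I genes passed as higher, 0 (without miR-34a 3) to 1 as lower, and 226 (without miR-34a 3) to 2133 (without vector 1) over all genes. Each of these fits has fewer arrays; the cause of the other shifts was not tested. The median change of the family ran from 0.058 to 0.149 in these fits. With median centring it was -0.004. None of the 21 genes chosen by the naming rule changed direction under the alternatives run, while 10 of the other complex I genes, all with changes under 0.1 in size, did so under at least 1 of them (Ndufa3, Ndufa6, Ndufa8, Ndufa12, Ndufb1, Ndufb2, Ndufb3, Ndufb11, Ndufs5 and Ndufv2). With the replicate block 0 genes of complexes II to V passed in either direction by limma, and with median centring 1 passed as higher and 4 as lower. No sign was seen that the replicate numbers pair the samples. Same-numbered arrays' deviations from their group means correlated at -0.168, -0.0935 and -0.0812, and no array correlated best with its own number. Deviations from a mean of 3 arrays depend on each other, so these values cannot exclude a pairing.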
